A study of Mus musculus with 6 samples.

Results

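The J-proximal IGKV genes are the kappa light chain V genes that lie nearest to the IGKJ genes. They were taken as the IGKV genes whose number after the dash runs from 1 to 48, leaving out IGKV6-15, IGKV6-17, IGKV6-23 and every gene of the IGKV10, IGKV17 and IGKV19 families, and a clonotype was assigned to its first V hit. Of the 102 IGKV genes found in the kappa libraries of both mice together, 35 were J-proximal. They held 678 of 1818 kappa clonotypes in the iB-μMT mouse, compared with 600 of 1696 in the B6 mouse. A clonotype is 1 distinct nucleotide sequence of CDR3, the stretch that spans the joint of V and J.

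Naïve follicular (FO) B cells were sorted from the spleens of 1 iB-μMT mouse and 1 C57BL/6 (B6) control mouse, and each gave a heavy chain, a kappa chain and a lambda chain library, 6 in all. The iB-μMT mouse was a sublethally irradiated μMT mouse, a strain whose Ighm mutation blocks B cell development, that had received iHPCs 4 weeks earlier. These hematopoietic progenitors came from iR9X2-ESC, a GFP-marked embryonic stem cell line of C57BL/6 background with an inducible Runx1-p2a-Hoxa9-t2a-Lhx2 cassette in Rosa26, and doxycycline was given in the drinking water. The B6 mouse served as the control, and the sources name no transplant or mutation for it. The study's methods give an age range for irradiated recipients in general, which is not printed here, and the labels state no age for these mice. With 1 library per group, there was no replicate check. Tests between the libraries compare 2 mice, not the conditions. Tests of J-proximal against other clonotypes were run within each library, and clonotypes of 1 mouse are not replicate animals. The sources do not describe molecular identifiers, so intervals cover counting error of clonotypes only. Where values are given in pairs without a name, the first is that of the iB-μMT mouse and the other that of the B6 mouse.

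In the mouse, a kappa chain is made by joining 1 V gene to 1 J gene without a D gene. A cell may join V and J again on the same chromosome, with a V gene farther out and a J gene farther down, so a kappa locus can be edited more than once. The number after the dash in an IGKV name follows the order of the genes along the locus, counted from the IGKJ side. V genes encode most of the antigen-binding domain, the J gene encodes its last strand, and CDR3 lies in the centre of the binding site. Terminal transferase adds untemplated nucleotides at joints, and kappa joints of the mouse are known to hold few of them.

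The joints of the leading members are shown first, since the same ones led in both mice. The largest clonotype of each of the 6 genes with the most reads is given here, in lower case as far as the V gene reaches, with the bases that only the J gene or an insertion supplied in capitals.
IGKV12-44 with IGKJ5: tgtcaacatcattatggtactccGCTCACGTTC
IGKV12-46 with IGKJ1: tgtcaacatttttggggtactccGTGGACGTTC
IGKV3-4 with IGKJ1: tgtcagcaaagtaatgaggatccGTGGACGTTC
IGKV6-32 with IGKJ2: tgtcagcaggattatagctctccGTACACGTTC
IGKV6-25 with IGKJ1: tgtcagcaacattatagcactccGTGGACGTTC
IGKV6-20 with IGKJ5: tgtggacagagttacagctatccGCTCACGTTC

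All 6 were 33 nucleotides long, or 11 amino acids with both end residues, and in all 6 the V gene had lost 3 nucleotides at its end. None of the 6 held an inserted nucleotide. In 5 of them, all but IGKV6-32 with IGKJ2, the deposited J part began at the last lower-case base and so overlapped the V part by 1 base. That base was recorded as lying 1 position outside the J gene. The IGKV12-46 and IGKJ1 clonotype was the largest J-proximal clonotype in both mice, with 6322 reads in the iB-μMT mouse, compared with 4282 reads in the B6 mouse. The IGKV12-44 and IGKJ5 clonotype had 4457 and 4152 reads, and the IGKV3-4 and IGKJ1 clonotype had 4458 and 4108 reads, respectively. Each of the 6 was found in both mice.

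For contrast, the largest J-proximal clonotype with inserted nucleotides joined IGKV8-27, trimmed by 0 nucleotides, to IGKJ4.
IGKV8-27 with IGKJ4: tgtcatcaatacctctcctcgCGCACGTTC
It had 2 inserted nucleotides, the first 2 of its capitals, and was 30 nucleotides long. Inserted here means lying between the deposited V and J parts, and whether such bases were templated was not tested. This clonotype was read 477 times in the iB-μMT mouse, compared with 413 times in the B6 mouse. It had rank 99 and 97 by reads among the J-proximal clonotypes, respectively.

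The 35 genes matched RefSeq genes of mouse assembly GRCm38.p6, all on chromosome 6 between 69726573 and 70704177 and all annotated as V segments. They lay 18.4 to 995 kb from IGKJ1, and their numbers followed the order of their positions without exception. RefSeq lists 38 V segments that the naming rule covers, so 3 were not found in either kappa library, Igkv1-35, Igkv8-23-1 and Igkv8-28. None of the 10 annotated V segment pseudogenes of the stretch was found. By family, 9 of the 35 were IGKV3 genes, 6 IGKV6, 9 IGKV8, 4 IGKV12 and 5 IGKV5 genes, and the remaining 2 were IGKV7-33 and IGKV18-36.

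Depth was similar in the kappa libraries, with 562884 reads in the iB-μMT mouse, compared with 534314 in the B6 mouse and a median of 42 and 37 reads per clonotype. J-proximal clonotypes had a median of 45 and 36 reads, and 6.2% and 6.5% of them were single reads, respectively. A stop codon interrupted 7 of 678 and 9 of 600 of them, and 83 in each mouse differed from the reference V gene within CDR3. The mice shared clonotypes to very different extents by chain. Of the heavy chain clonotypes, 34 were found in both mice, or 0.436% for the iB-μMT mouse and 0.501% for the B6 mouse. Of the kappa clonotypes, 894 were found in both, which was 49.2% and 52.7%, respectively, and the lambda libraries shared 54.9% and 66.7%.

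The J-proximal share of kappa clonotypes was 37.3% (35.1 to 39.5%, 95% Wilson interval) in the iB-μMT library and 35.4% in the B6 library (33.1 to 37.7%), and the intervals overlapped. Weighted by reads, the share was 34.7% and 30.0%, respectively. The left-out IGKV6-15, IGKV6-17 and IGKV6-23, which lie within the same stretch, held 14.6% and 17.8% of the kappa reads. Their difference went the other way, so the size of the gap in read share depends on leaving them out. The other kappa clonotypes fell on IGKV6-15, IGKV6-17 and IGKV6-23, with 6.93% and 6.90%, on the 34 and 35 middle genes (all others up to number 92), with 29.8% and 29.4%, and on the 27 and 26 J-distal genes (number 93 and above), with 26.0% and 28.3%. The read share was spread over many members. The 10 largest clonotypes held 22.0% and 23.1% of the J-proximal reads, and 130 of 140 possible pairs of a member and a J gene were found, compared with 121 of 136.

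**Figure D1:**
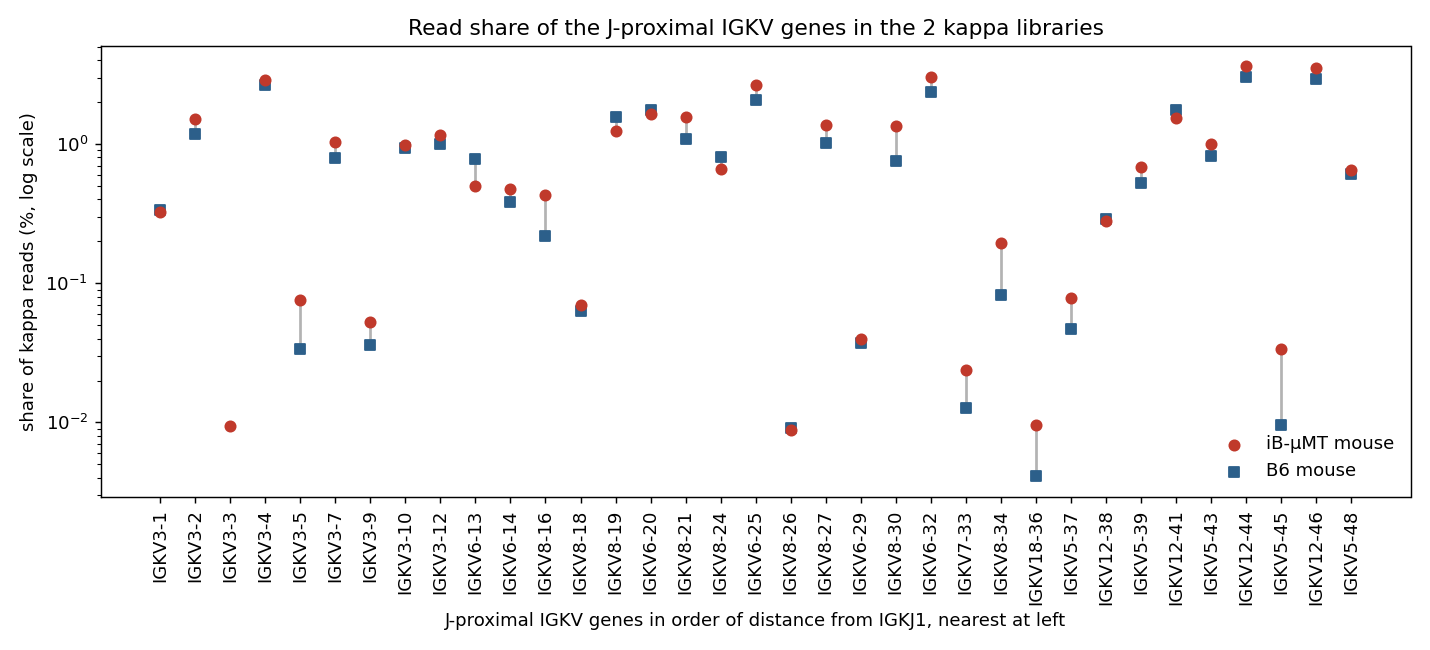
Each J-proximal gene's share of the kappa reads (vertical axis, percent, log scale) in the iB-μMT mouse (circles) and the B6 mouse (squares), with genes in order of distance from IGKJ1. Genes above 1% and genes below 0.1% are interspersed along the stretch, the members of a pair of points mostly lie close together, and IGKV3-3 has a point in the iB-μMT mouse alone.

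Read share differed far more between members than between the mice for 1 member, as the plot of read share by gene shows. The ratio of read shares, iB-μMT over B6, ran from 0.644 (IGKV6-13) to 3.50 (IGKV5-45) over the members found in both mice. Across members the read share ran from 0.00888% (IGKV8-26) to 3.60% (IGKV12-44) in the iB-μMT mouse, and among those found in the B6 mouse from 0.00412% (IGKV18-36) to 3.05% (IGKV12-44). There were 13 members with a mean share over both mice of 1% or more, which together held 27.1% and 23.1% of the kappa reads. Another 12 lay between 0.1% and 1%, with 7.22% and 6.57% together, and 10 lay below 0.1%, with 0.401% and 0.254%. Reads per clonotype are 1 part of the read share that formed these groups, so a difference in them is partly built in. The 13 leading genes had 401 and 363 reads per clonotype, and the 10 lowest had 34.7 and 37.6, respectively.

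The IGKV12 family held the most reads for its size, 8.92% and 8.02% of the kappa reads over 4 genes. IGKV12-44, 907 kb from IGKJ1, held 3.60% and 3.05%. IGKV12-46, at 958 kb, held 3.51% and 2.93%. These were the highest and second highest levels among the members in either mouse. IGKV12-41 held 1.53% and 1.75%, and IGKV12-38 held 0.278% and 0.290%. The family had 105 clonotypes in the iB-μMT mouse, compared with 102 in the B6 mouse (5.78% and 6.01%).

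IGKV3 genes lie nearest to the J genes. They held 176 and 153 clonotypes, with 8.04% and 6.92% of the kappa reads. IGKV3-1, 18.4 kb from IGKJ1 and the nearest of all, held 0.322% and 0.333% of the reads with 14 and 13 clonotypes. IGKV3-2, the next at 23.5 kb, held 1.52% and 1.17% with 23 and 20 clonotypes. Nearness to the J genes thus did not go with the highest level within this family. IGKV3-4, at 50.2 kb, was its leading gene with 2.88% and 2.63%, followed by IGKV3-2 and then by IGKV3-12 with 1.16% and 0.999%. IGKV3-10 held 0.981% and 0.928%. IGKV3-7 held 1.03% and 0.787%, and IGKV3-9 held 0.0522% and 0.0361% with 8 and 7 clonotypes. IGKV3-3, which lies between IGKV3-2 and IGKV3-4 at 35.0 kb, was the single member found in 1 library: it had 2 clonotypes and 53 reads in the iB-μMT mouse, and 0 of 1696 clonotypes in the B6 mouse, which allows a share of up to 0.177%. Its difference was therefore not detectable at this depth.

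IGKV6 genes other than the 3 left out held 119 and 107 clonotypes and 8.36% and 7.40% of the kappa reads. IGKV6-32 held 3.04% and 2.36%, and IGKV6-25 held 2.66% and 2.08%. IGKV6-20 held 1.64% and 1.76%. These 3 made up most of the family, as IGKV6-13 held 0.502% and 0.780%, IGKV6-14 0.472% and 0.382%, and IGKV6-29 0.0396% and 0.0374%. IGKV6-13 was also the 1 member whose read share was over 1.5 times lower in the iB-μMT mouse, with a ratio of 0.644, whereas its clonotypes numbered 24 and 26.

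IGKV8 genes had the most clonotypes of the J-proximal families, 184 in the iB-μMT mouse, compared with 156 in the B6 mouse, and 6.89% and 5.59% of the reads. IGKV8-30 had 37 and 30 clonotypes and a read share of 1.35% and 0.753%. IGKV8-21 had 36 and 35 clonotypes, with 1.55% and 1.08% of the reads, and IGKV8-19 had 35 in each mouse, with 1.25% and 1.56%. IGKV8-27 had 20 and 15 clonotypes, with 1.37% and 1.01%. Of the lower IGKV8 members, IGKV8-24 held 0.666% and 0.812%, IGKV8-16 held 0.430% and 0.219%, and IGKV8-34 held 0.193% and 0.0829%. IGKV8-27 and IGKV8-21 differ from most members in CDR3, since the V-encoded ends recovered from untrimmed clonotypes were 21 and 23 nucleotides long. The commonest length was 26. IGKV8-18 and IGKV8-26, with ends of 31 and 32 nucleotides, were among the low members, with 0.0693% and 0.0636%, and with 0.00888% and 0.00917%, respectively.

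The 5 IGKV5 genes held 87 and 77 clonotypes and 2.45% and 2.01% of the reads, and their leading member IGKV5-43 held 0.995% and 0.820%. IGKV5-39 held 0.686% and 0.527%, and IGKV5-48, the farthest member at 995 kb, held 0.655% and 0.608%. IGKV5-37 and IGKV5-45 were low, with 0.0789% and 0.0472%, and with 0.0334% and 0.00954%, respectively. IGKV7-33 and IGKV18-36, the only found members of their families, held 0.0238% and 0.0127%, and 0.00959% and 0.00412%, respectively. The order of the families by clonotypes was IGKV8, IGKV3, IGKV6, IGKV12 and IGKV5 in both mice, but neighbours in that order had overlapping Wilson intervals of their clonotype shares in both mice for IGKV8 and IGKV3, for IGKV6 and IGKV12, and for IGKV12 and IGKV5.

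No J-proximal gene differed in clonotype number between the libraries after adjustment. Fisher's exact test (two-sided) was run on the 69 IGKV genes with at least 20 clonotypes in both libraries together, and the Benjamini-Hochberg adjustment covered all 69. It called 0 genes, or 0% of those tested, and the smallest adjusted p was 1. Of the 25 members tested, 1 had an unadjusted p under 0.05, against 2 of all 69 (2.9%). The other 10 members had too few clonotypes for the test. The test takes the libraries as independent, but 894 kappa clonotypes stood in both and counted in each. It therefore leans towards no difference. Without those clonotypes it also called 0 genes. Members with a higher clonotype share in the iB-μMT mouse numbered 22 of the 34 found in both (64.7%), beside 48.4% of the 95 IGKV genes found in both.

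**Figure D2:**
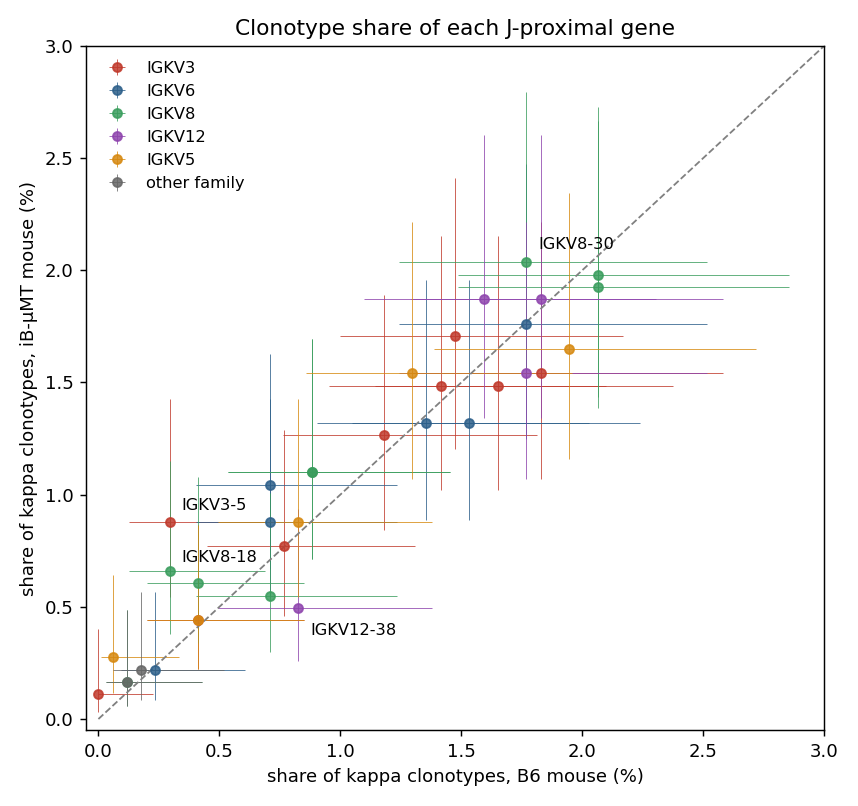
Share of kappa clonotypes held by each J-proximal gene in the B6 mouse (horizontal axis, percent) and in the iB-μMT mouse (vertical axis, percent), coloured by family, with 95% Wilson intervals and a dashed line of equal shares. Points lie on both sides of the line, 22 of the 34 members found in both mice above it, and IGKV3-5, at 0.880% and 0.295%, lies above it.

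The member with an unadjusted p under 0.05 was IGKV3-5, shown with the others in the plot of clonotype shares. It had 16 clonotypes in the iB-μMT mouse, compared with 5 in the B6 mouse, a difference of 0.585 percentage points (Fisher's exact test, p = 0.0280, adjusted p = 1). IGKV8-18 had 12 and 5, below the minimum for the test. IGKV6-25 had 19 and 12 (p = 0.367 by the same exact test, adjusted p = 1), IGKV12-44 had 34 and 27, and IGKV8-30 had 37 and 30. These were the 5 largest differences towards the iB-μMT mouse. In the opposite direction IGKV12-38 had 9 and 14 clonotypes (exact p = 0.296, adjusted p = 1), IGKV5-43 30 and 33, IGKV3-10 28 and 31, IGKV12-46 28 and 30, and IGKV6-13 24 and 26. Each of these differences was at most 0.330 points in size.

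Read shares were higher in the iB-μMT mouse for 26 of the 34 members found in both mice (76.5%), beside 57.9% of the 95 IGKV genes found in both. The median ratio of read shares, iB-μMT over B6, was 1.23 over the members and 1.09 over all 95 genes. A ratio above 1.5 was found for 8 members (23.5%), beside 26.3% of all genes, and a read share over 1.5 times lower for 1 member (2.94%), beside 11.6%. Of those 8 members, 5 were among the 10 with the fewest reads (IGKV3-5, IGKV7-33, IGKV18-36, IGKV5-37 and IGKV5-45), and the others were IGKV8-16, IGKV8-34 and IGKV8-30. These ratios have no test, since reads are not independent molecules.

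Several members end in the same bases, which limits how far their levels can be told apart. In each kappa table every CDR3 nucleotide sequence stood once, under 1 first V hit, so reads of 2 V genes with the same CDR3 count for 1 of them. The V-encoded end, from the codon of the first CDR3 residue, was read from untrimmed clonotypes without a mismatch for 33 members, and there were 30 distinct ends. The pairs that share an end are shown with IGKV3-10, whose end differs from that of IGKV3-4 by 1 base, in capitals.
IGKV6-25: tgtcagcaacattatagcactcctcc
IGKV8-24: tgtcagcaacattatagcactcctcc
IGKV5-43: tgtcaacagagtaacagctggcctca
IGKV5-45: tgtcaacagagtaacagctggcctca
IGKV3-5: tgtcagcaaagtaatgaggatcctcc
IGKV3-4: tgtcagcaaaGtaatgaggatcctcc
IGKV3-10: tgtcagcaaaAtaatgaggatcctcc

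IGKV6-25 and IGKV8-24 are neighbours on the locus, at 507 and 505 kb from IGKJ1. Of the 378 CDR3 sequences that were found in both mice with a J-proximal V hit in at least 1, 23 (6.08%) had different first V hits in the mice. IGKV6-25 and IGKV8-24 accounted for 8 of these, IGKV3-4 and IGKV3-5 for 5, IGKV3-10 and IGKV3-5 for 4, and IGKV5-43 and IGKV5-45 for 3. The remaining 3 were 1 each of IGKV3-10 and IGKV3-4, of IGKV6-20 and IGKV6-29, and of IGKV5-48 and IGKV16-104, the last of which is not J-proximal. The largest of the 23 joined to IGKJ5 and had 1142 reads under IGKV6-25 in the iB-μMT mouse, compared with 640 under IGKV8-24 in the B6 mouse.
CDR3 under both names: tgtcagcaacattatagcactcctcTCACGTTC

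Of the 16 clonotypes of IGKV3-5 in the iB-μMT mouse, 7 had the same CDR3 in the B6 mouse under another V gene, 9 were not found there, and 0 were found there as IGKV3-5. Of its 5 clonotypes in the B6 mouse, 2 stood under another V gene in the iB-μMT mouse and 3 were not found there. With IGKV3-4, IGKV3-5 and IGKV3-10 counted as 1 gene, the clonotypes numbered 71 and 64 (Fisher's exact test, p = 0.861, adjusted p = 1), and the read shares were 3.94% and 3.60%. The difference of IGKV3-5 was thus not seen in the sum of the 3. IGKV6-25 and IGKV8-24 together had 29 and 24 clonotypes and 3.33% and 2.89% of the reads, beside 3.60% and 3.05% for IGKV12-44. IGKV5-43 and IGKV5-45 together had 35 and 34 clonotypes, and IGKV6-20 and IGKV6-29 had 28 and 27.

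Members joined to all 4 functional J genes, IGKJ1, IGKJ2, IGKJ4 and IGKJ5. In the iB-μMT mouse IGKJ1 was used by 206 of the 678 J-proximal clonotypes (30.4%), IGKJ2 by 195 (28.8%), IGKJ4 by 112 (16.5%) and IGKJ5 by 165 (24.3%). In the B6 mouse the numbers were 191 of 600 (31.8%), 155 (25.8%), 86 (14.3%) and 168 (28.0%). IGKJ1 was the most used and IGKJ4 the least used in both mice. IGKJ2 and IGKJ5 changed places between the mice, and their intervals overlapped in each. The clonotypes of all other IGKV genes had IGKJ1 shares of 31.0% and 30.4%, IGKJ4 shares of 15.8% and 15.8%, and IGKJ5 shares of 25.0% and 26.0%.

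For no J gene did the share among the members differ from that among the other kappa clonotypes past the threshold. Fisher's exact tests of 7 features in each library, 14 in all with Benjamini-Hochberg adjustment, gave adjusted p values from 0.849 to 0.898 for the J genes. For IGKJ1 the difference, J-proximal minus other, was -0.58 points (95% Newcombe interval -4.91 to 3.84) and 1.45 points (-3.10 to 6.11). For IGKJ5 it was -0.66 points (-4.69 to 3.49) and 2.00 points (-2.37 to 6.49). Differences within these intervals were not excluded with these numbers of clonotypes. By reads, the share of IGKJ5 among J-proximal reads was 26.3% and 27.9%, that among reads of the middle genes was 40.0% and 48.2%, and that among reads of the J-distal genes was 22.1% and 23.9%, which has no test.

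**Figure D3:**
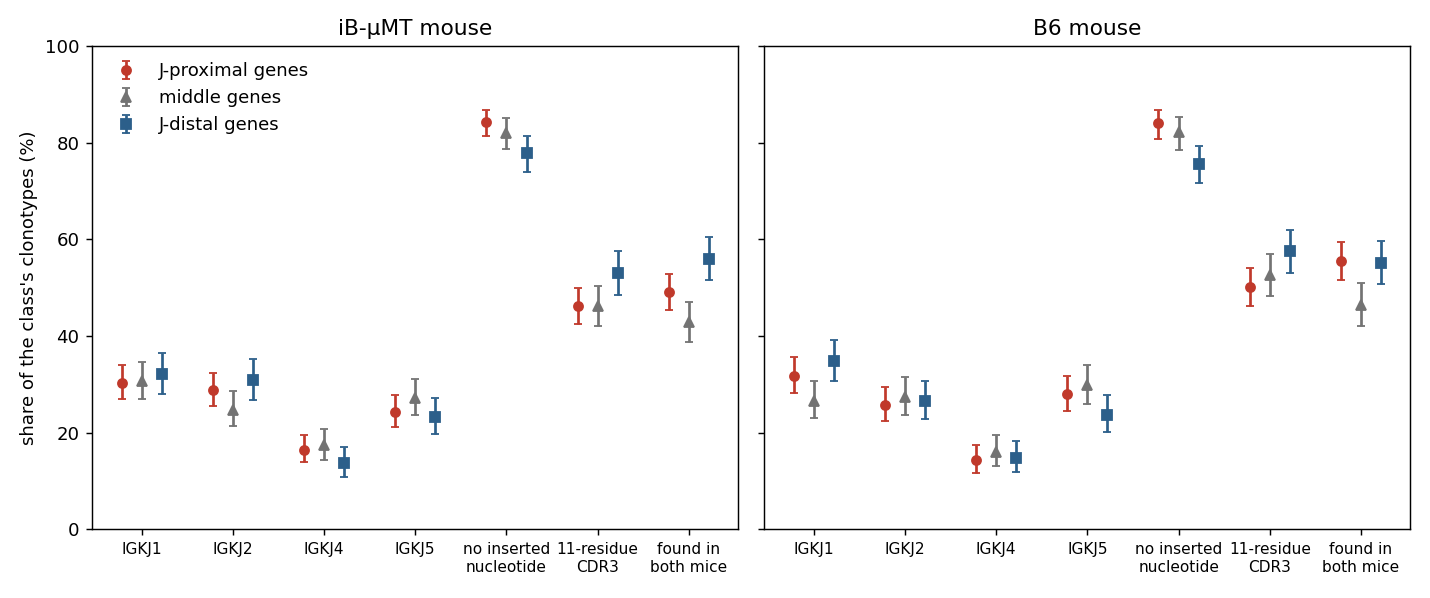
Share of clonotypes (vertical axis, percent, with 95% Wilson intervals) with each J gene, without an inserted nucleotide, with a CDR3 of 11 amino acids and found in both mice, for J-proximal, middle and J-distal genes, with the iB-μMT mouse at left and the B6 mouse at right. The J gene shares of the classes lie close together, and the J-proximal share without an inserted nucleotide, 84.2% and 84.0%, lies above that of the J-distal genes, 77.8% and 75.6%.

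J gene use spread more widely among single members, but these hold far fewer clonotypes than the classes, so counting error alone widens the spread. The spread among members was not tested. Among members with at least 20 clonotypes in both libraries together, the share of IGKJ1 over both was highest for IGKV3-5 (42.9%, 7 of 16 clonotypes in the iB-μMT mouse, compared with 2 of 5 in the B6 mouse), IGKV6-25 (41.9%, 8 of 19 and 5 of 12) and IGKV12-44 (41.0%, 12 of 34 and 13 of 27). It was lowest for IGKV6-13 (12%, 1 of 24 and 5 of 26), IGKV6-20 (21.3%, 5 of 24 and 5 of 23) and IGKV8-24 (22.7%, 2 of 10 and 3 of 12). IGKV6-25 and IGKV8-24, which stand at opposite ends of this order, share their V-encoded end, and 8 CDR3 sequences stood under 1 of them in 1 mouse and under the other in the other mouse. By family, the IGKJ1 share was 36.4% and 34.6% for IGKV3, 34.3% and 39.2% for IGKV12, and 21.8% and 26.0% for IGKV5. The intervals of IGKV3 (29.6 to 43.7%) and IGKV5 (14.5 to 31.6%) overlapped in the iB-μMT mouse, and those in the B6 mouse did too.

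The leading gene shows what each J gene contributes to CDR3. The largest IGKV12-44 clonotype with each J gene had the same V-encoded part, with 3 nucleotides lost, and differed in the capitals.
IGKV12-44 with IGKJ1: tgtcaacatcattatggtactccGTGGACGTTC
IGKV12-44 with IGKJ2: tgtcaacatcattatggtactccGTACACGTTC
IGKV12-44 with IGKJ4: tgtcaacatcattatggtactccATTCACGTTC
IGKV12-44 with IGKJ5: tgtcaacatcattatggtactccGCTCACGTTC

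These 4 clonotypes held 3484, 4094, 2792 and 4457 reads in the iB-μMT mouse, in that order, and 2045, 3623, 1573 and 4152 reads in the B6 mouse. In both mice IGKJ5 was first, IGKJ2 second, then IGKJ1, and IGKJ4 was last. Over all J-proximal clonotypes with a CDR3 of 11 amino acids, residue 8, the last the V gene usually encodes, was proline in 265 of 313 (84.7%) and in 275 of 301 (91.4%). Residue 9 varied with the J gene. It was tyrosine in 80.6% and 71.6% of those with IGKJ2, phenylalanine in 96.4% and 87.5% of those with IGKJ4, and leucine in 60.4% and 63.3% of those with IGKJ5. With IGKJ1 it was tryptophan in 42.6% and 42.7%, arginine in 25.5% and 25.0%, and proline in 22.3% and 24.0%.

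A CDR3 of 11 amino acids was the commonest among J-proximal clonotypes. It was found in 313 of 678 (46.2%) and in 301 of 600 (50.2%), 10 amino acids in 26.7% and 25.8%, and 12 in 18.4% and 16.7%. Among the other kappa clonotypes the share of 11 was 47.8% and 53.4%, and the differences, -1.64 points (-6.36 to 3.10) and -3.21 points (-8.16 to 1.76), did not pass Fisher's exact test (adjusted p = 0.849 and 0.779). The share of 10 among them was 19.2% and 20.2%, which was not tested. IGKV5 had the highest share of 11 among the 5 large families, 56.3% and 57.1%, and IGKV8 the lowest, 42.4% and 42.3%.

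**Figure D4:**
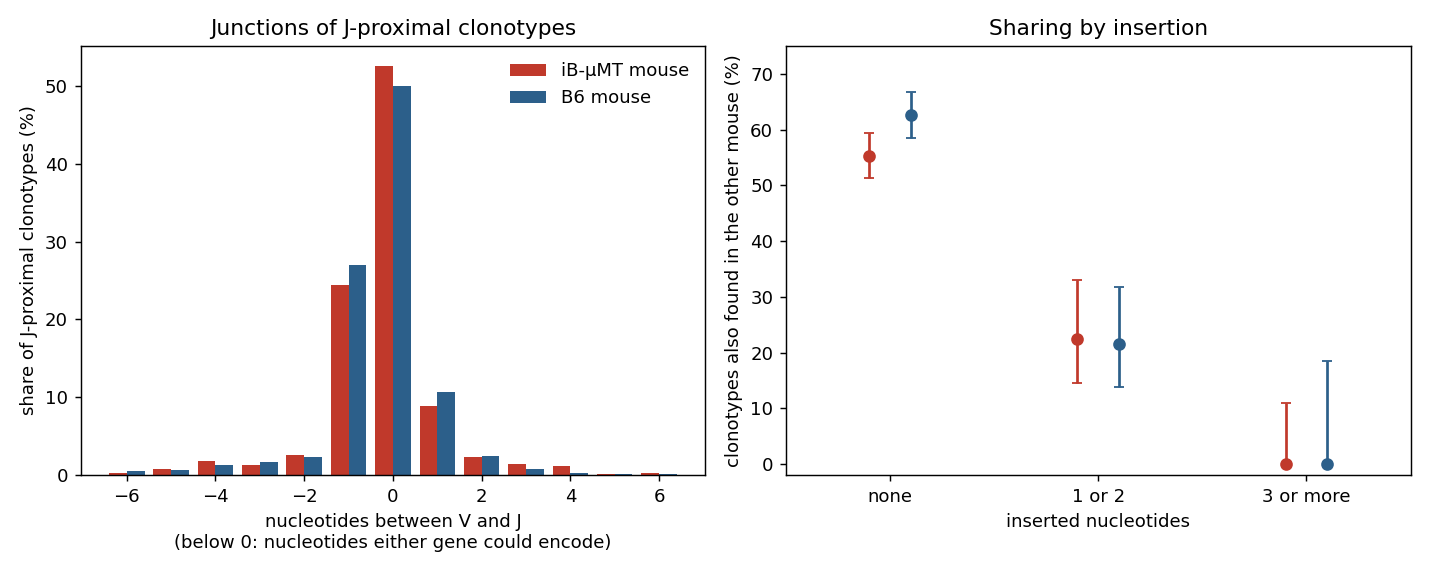
Left, share of J-proximal clonotypes (percent) by the number of nucleotides between the deposited V and J parts. Values below 0 count the bases by which these parts overlap. The axis calls them bases either gene could encode, which was not tested. Right, share of J-proximal clonotypes also found in the other mouse (percent, with 95% Wilson intervals) by the number of inserted nucleotides, in the same colours, which falls from 55.3% and 62.7% without insertion to 0 with 3 or more.

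Most J-proximal joints held no inserted nucleotide. That was so for 571 of 678 clonotypes in the iB-μMT mouse (84.2%, 81.3 to 86.8%) and 504 of 600 in the B6 mouse (84.0%, 80.9 to 86.7%). In 356 and 300 of them V and J met exactly, and in 215 and 204 the deposited V and J parts overlapped by at least 1 base. Whether both genes encode the overlapping bases was not tested. A single inserted nucleotide was found in 8.85% and 10.7%. The V gene was untrimmed in 29.2% and 28.3% and had lost exactly 3 nucleotides in 26.4% and 30.3%, and these were the 2 commonest outcomes in both mice. Joints without insertion held 98.1% and 98.0% of the J-proximal reads.

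Among the other kappa clonotypes, 80.2% and 78.6% held no inserted nucleotide. The differences were 4.04 points in the iB-μMT mouse (0.367 to 7.55, Fisher's exact test, p = 0.0330, adjusted p = 0.231) and 5.44 points in the B6 mouse (1.53 to 9.15, p = 0.00709, adjusted p = 0.0993). Both lay in the same direction, and neither passed after adjustment over the 14 tests. The 2 differences are not independent, since 316 J-proximal clonotypes without an insertion stood in both libraries and counted in each. Against the J-distal genes alone, with the adjustment again over 14 tests, the differences were 6.42 points (1.84 to 11.1, exact test, adjusted p = 0.0474) and 8.38 points (3.57 to 13.2, adjusted p = 0.00970). Against the middle genes alone they were 2.15 and 1.84 points (Fisher's exact test, adjusted p = 0.696 for both). When shared clonotypes were left out, the differences from all others were smaller, 1.03 and 1.44 points, and neither passed Fisher's exact test. Among clonotypes with at least 2 reads the difference from all others was 4.98 and 5.86 points (adjusted p = 0.0493 for both by the same exact test), so the call depended on which clonotypes were counted. A Breslow-Day test of equal odds ratios in the mice gave an adjusted p of 0.657 for each of the 7 features compared in this way. That test takes the libraries as independent, but 894 kappa clonotypes stood in both. For sharing, the counts of shared clonotypes, 333 and 561, were the same in each library by definition. The Breslow-Day test therefore cannot decide whether the mice were alike.

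Clonotypes found in both mice were a large part of the J-proximal repertoire. They numbered 333, which was 49.1% for the iB-μMT mouse (45.4 to 52.9%) and 55.5% for the B6 mouse (51.5 to 59.4%), and held 92.5% and 95.02% of the J-proximal reads. Their median was 140 and 116 reads, and that of the J-proximal clonotypes found in 1 mouse was 21 and 17 reads. Of the 50 largest J-proximal clonotypes, 49 of those in the iB-μMT mouse were found in the B6 mouse, and 50 of those in the B6 mouse were found in the iB-μMT mouse. The other kappa clonotypes had shared parts of 49.2% and 51.2%, with differences of -0.10 points (-4.83 to 4.65, exact test, adjusted p = 1) and 4.31 points (-0.66 to 9.23, adjusted p = 0.436). Against the middle genes alone the differences were 6.23 and 9.01 points (Fisher's exact test, adjusted p = 0.227 and 0.0421). Against the J-distal genes alone they were -6.91 and 0.292 points (Fisher's exact test, adjusted p = 0.0639 and 0.951).

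**Figure D5:**
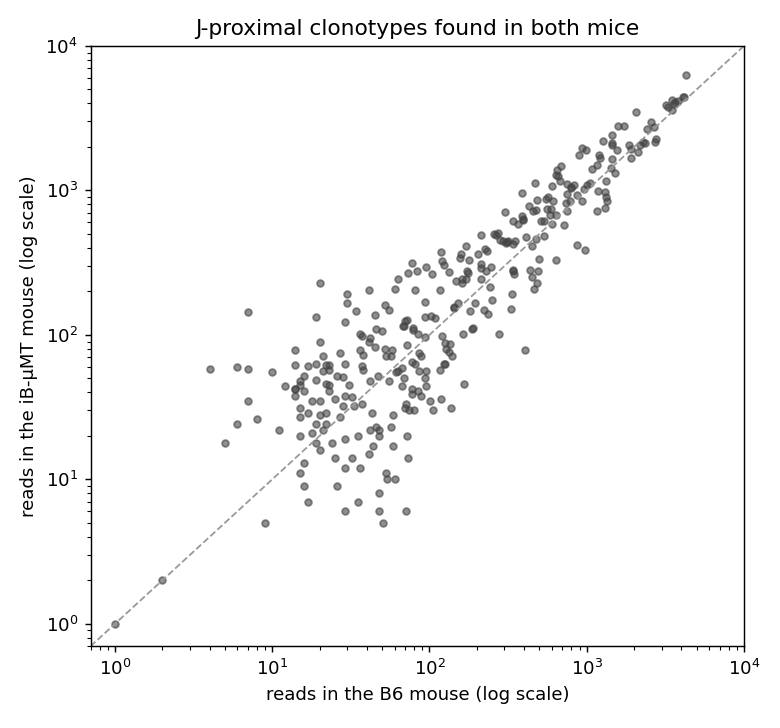
Reads of each of the 333 J-proximal clonotypes found in both mice, in the B6 mouse (horizontal axis) and in the iB-μMT mouse (vertical axis), both on a log scale, with a dashed line of equal reads. The points follow the line, with wider scatter at low reads, and Pearson r for log10 reads is 0.885.

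Reads of the shared clonotypes ran in parallel in the mice. Pearson's r of log10 reads was 0.885 over the 333 J-proximal clonotypes and 0.885 over the 561 other shared kappa clonotypes. These are descriptions across clonotypes of 2 libraries, which share V genes and are not replicates, and they have no p value. Sharing went with the joint. Without an inserted nucleotide, 316 of 571 J-proximal clonotypes in the iB-μMT mouse (55.3%, 51.2 to 59.4%) and 316 of 504 in the B6 mouse (62.7%, 58.4 to 66.8%) were found in both. With 1 or 2 inserted nucleotides, 17 of 76 (22.4%, 14.5 to 32.9%) and 17 of 79 (21.5%, 13.9 to 31.8%) were. With 3 or more, 0 of 31 and 0 of 17 were, which allows a share of up to 9.68% and 17.6%, and the Wilson intervals of the joints without insertion and of those with 1 or 2 inserted nucleotides did not overlap in either mouse. Clonotypes without an insertion also had more reads, with a median of 55 and 42, than those with 3 or more, with a median of 2 in each mouse, and the part of depth in this difference was not tested.

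The 13 leading members had 190 shared clonotypes, 50% and 55.7% of theirs, the 12 members between 0.1% and 1% of the reads had 127, or 54.5% and 57.0%, and the 10 lowest, which include IGKV3-5 and IGKV5-45, had 16, or 24.6% and 44.4%. These differences were not tested. IGKV12 had the highest share among the 5 large families in both mice, 58.1% and 59.8%, and IGKV8 the lowest in the iB-μMT mouse, 45.1%, and IGKV3 in the B6 mouse, 52.9%. None of the clonotypes of IGKV3-3, IGKV3-5, IGKV8-26 or IGKV5-45 was found in both mice under the same V and J genes. For IGKV3-5 and IGKV5-45, whose V-encoded ends are those of IGKV3-4 and IGKV5-43, 7 and 2 of the clonotypes in the iB-μMT mouse had their CDR3 in the B6 mouse under another V gene.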

How the data were processed

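Kappa clonotype tables of 1 iB-μMT mouse and 1 B6 mouse were used, with the heavy and lambda tables for sharing alone. Per the sources, total RNA was amplified by 5' RACE and sequenced on an Illumina MiSeq, and clonotypes were assembled with MiXCR. The submitters' processing notes name bcl2fastq and mm10. For each clonotype the authors deposited a read count, used here without normalization, beside its CDR3 and its V and J hits. A low V score difference between hits can move a clonotype to a near-identical gene.

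The first V and J hits were taken, and each clonotype was counted once. Inserted nucleotides were those between the deposited V and J end positions. Clonotypes were shared when CDR3 nucleotides, V gene and J gene were the same. Members, lists and tests were chosen with earlier results of these data known. Genes named were the 12 with most reads, the 5 largest clonotype differences in each direction, genes called or found in 1 library, the 3 highest and 3 lowest IGKJ1 shares and the 3 nearest to IGKJ1. A two-sided Fisher's exact test compared each IGKV gene with at least 20 clonotypes, with Benjamini-Hochberg adjustment at 0.05, and 7 features in each library likewise, with a Breslow-Day test between the mice. Intervals are 95% Wilson and Newcombe intervals, and a count of 0 allows up to 3 counts. The Fisher test of genes with its adjustment and the Newcombe interval were run on simulated data with known differences. The Breslow-Day test was not. Depth and alternatives are given in the text. Python 3.11.15, NumPy 2.4.6, SciPy 1.17.1, pandas 2.3.3, statsmodels 0.14.6 and matplotlib 3.10.9 were used. RefSeq positions are those of GRCm38.p6, the assembly that mm10 stands for, and the RefSeq table used gives no strand.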

Additional observations from a re-analysis of the deposited data

How the results depend on the processing

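No paired analysis was possible because each group had 1 library. The J-proximal share of clonotypes stayed within its interval under 6 of 8 alternatives (minimum reads, unique best V score, no shared clonotypes, merging, productive CDR3). It was 44.2% and 42.3% (iB-μMT and B6 mouse) with IGKV6-15, IGKV6-17 and IGKV6-23 included and, without these genes, 34.7% and 30.0% by reads. No IGKV gene was called by Fisher's exact test under any of 9 alternatives. Genes with an unadjusted p under 0.05 ranged from 0 of 66 (at least 2 or at least 5 reads) to 5 of 37 (no shared clonotypes). The main test had 2 of 69. Among the members, the setting without shared clonotypes gave 1 of 15. Pooling the V genes, chosen after seeing the data, turned the IGKV3-10 difference to 0.13 points. Of the 14 feature tests, 2 passed with at least 2 reads, 2 with at least 5 reads (the joints without insertion, 5.36 and 5.68 points), 2 against J-distal genes and 1 against middle genes, sharing in the B6 mouse (9.01 points, Fisher's exact test, adjusted p = 0.0421). Without shared clonotypes the test of sharing could not be made, and sharing defined by CDR3 nucleotides alone, also chosen after seeing the data, changed no call or direction. Differences that did not pass, all in points, J-proximal minus other, changed sign as follows. For sharing in the iB-μMT mouse they became 0.153 (at least 2 reads), 0.345 (at least 5 reads), 0.0944 (unique best V score), 1.16 (merging), 0.0253 (productive CDR3), 0.364 (IGKV6-15, IGKV6-17 and IGKV6-23 included), 6.23 (against middle genes) and 1.23 (by reads). With at least 2 reads, IGKJ1 and IGKJ2 in the iB-μMT mouse became 0.0562 and -0.0905, and with at least 5 reads IGKJ2 and IGKJ5 became -0.53 and 0.163. Without shared clonotypes, a CDR3 of 11 amino acids in the iB-μMT mouse became 0.216, and IGKJ1 and IGKJ2 in the B6 mouse -0.132 and 0.239. With IGKV6-15, IGKV6-17 and IGKV6-23 included, IGKJ2 and IGKJ5 in the B6 mouse became 0.128 and -0.365. Against middle genes, IGKJ4 in the iB-μMT mouse became -0.86 and IGKJ5 in the B6 mouse -1.86. Against J-distal genes, IGKJ2 and IGKJ5 in the iB-μMT mouse became -2.11 and 1.08, and IGKJ1 in the B6 mouse -2.96. By reads, IGKJ1 in the iB-μMT mouse became 3.34, and IGKJ4 and IGKJ5 in the B6 mouse 0.255 and -5.89. The cause of these changes was not tested. With all 678 and 600 J-proximal clonotypes against all others, 0 of the 14 feature tests passed, and the smallest detectable difference was not computed.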

Other observations

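The J hit of a clonotype was also not always the same for 1 CDR3. Of the 378 CDR3 sequences found in both mice with a J-proximal V hit, 22 had the same V gene and a different J gene in the mice, and 333 had the same V and J genes.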
